A study of Mus musculus with 32 samples.

Results

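The genes that build, load and regulate MHC class I were followed in RNA of microglia sorted from mouse spinal cord. They were taken by symbol as H2-D1, H2-K1, B2m, Tap1, Tap2, Tapbp, Tapbpl, Nlrc5, Erap1 and Calr. All 10 were listed in both deposited tables, among 13377 genes in the female table of 15 libraries and 11999 in the male table of 17 libraries. Repopulated libraries came from mice whose microglia had been depleted, and resident libraries from mice without depletion, each with and without a fracture. In the order repopulated then resident, the female groups held 3 and 4 libraries without fracture and 4 and 4 with fracture, and the male groups held 2 and 3 without fracture and 7 and 5 with fracture. Every library is labelled day 14 and Cx3Cr1-Cre;Rosa26-iDTR, a cross in which cells that have expressed Cx3cr1 can be given a diphtheria toxin receptor, with tamoxifen and then diphtheria toxin used for the depletion. The sample descriptions nevertheless call the resident libraries Wt or WT, and the depleted ones Dt in females and iDTR in males. Repopulation therefore cannot be told apart from a difference in genotype or in exposure to the toxin. The labels do not say that each library is a separate animal, so p-values measure the spread between samples.

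MHC class I molecules show short peptides from a cell's own proteins to CD8 T cells. A polymorphic heavy chain (in mice H2-K, H2-D and in some strains H2-L) pairs with the invariant light chain beta-2-microglobulin, and peptides reach them in the endoplasmic reticulum through the TAP transporter. Tapasin, calreticulin and other proteins hold the empty molecule at the transporter until a peptide fits. Microglia at rest are known for low class I levels that interferons raise, and NLRC5 acts at the promoters of these genes.

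Sorted cells carried the transcripts of microglia in every library. All 10 microglial markers, among them Tmem119 and P2ry12, were listed in both tables, and their summed level was 43058 to 52915 CPM (counts scaled to library size) in female libraries and 49829 to 64275 CPM in male libraries. Of 7 markers of T and NK cells none was listed in either table, and of the monocyte list Ly6c2 and Ccr2 were not. Every listed transcript has at least 10 counts in at least 8 female or 9 male libraries, so a marker found in the 7 female repopulated libraries alone could not have been listed, and these absences do not measure purity. Total counts were 16438827 to 18654165 per library in females and 5722993 to 33697535 in males. A few libraries stood apart from their group in the class I genes. In the female resident group without fracture, replicates 1 and 3 were above replicates 2 and 4 in H2-D1, H2-K1 and B2m. Of these, replicate 1 was still below every female repopulated library without fracture. In the male repopulated group with fracture, replicates 6 and 7 were above the other 5. The female pair 1 and 3 and the male pair 6 and 7 were picked for their levels of the same genes. Sex and library preparation were the same split, so the sexes were tested apart and no difference between them was tested.

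Divided by the length of the longest listed protein-coding transcript, B2m had the highest level of the 10 genes, followed by the heavy chains. B2m, the light chain, had a median of 4267 CPM per kilobase over the 15 female libraries and 7209.8 over the 17 male ones. H2-D1 followed with medians of 3096 and 2404, and H2-K1 with 1419 and 848 CPM per kilobase. The chaperone Calr and the tapasin gene Tapbp came next, at 211 and 199.7 CPM per kilobase in females and 362 and 299 in males, and their ranges overlapped in both sexes. The transporter subunits Tap1 and Tap2 also overlapped each other, with 63.7 and 60.2 in females and 48 and 74.9 CPM per kilobase in males. At the low end stood Tapbpl (35.7 and 33.2), Erap1 (22.4 and 12.5) and the transactivator gene Nlrc5 (9.5 and 1.5 CPM per kilobase, females and then males). The 5 genes Tapbp, H2-K1, Tap1, Tap2 and H2-D1 lie in the MHC on chromosome 17, H2-K1 at chr17:33996017-34000347 on the minus strand and H2-D1 at chr17:35262730-35267499 on the plus strand (GENCODE M21 annotation, GRCm38). The others lie outside it, B2m at chr2:122147686-122153083.

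**Figure D1:**
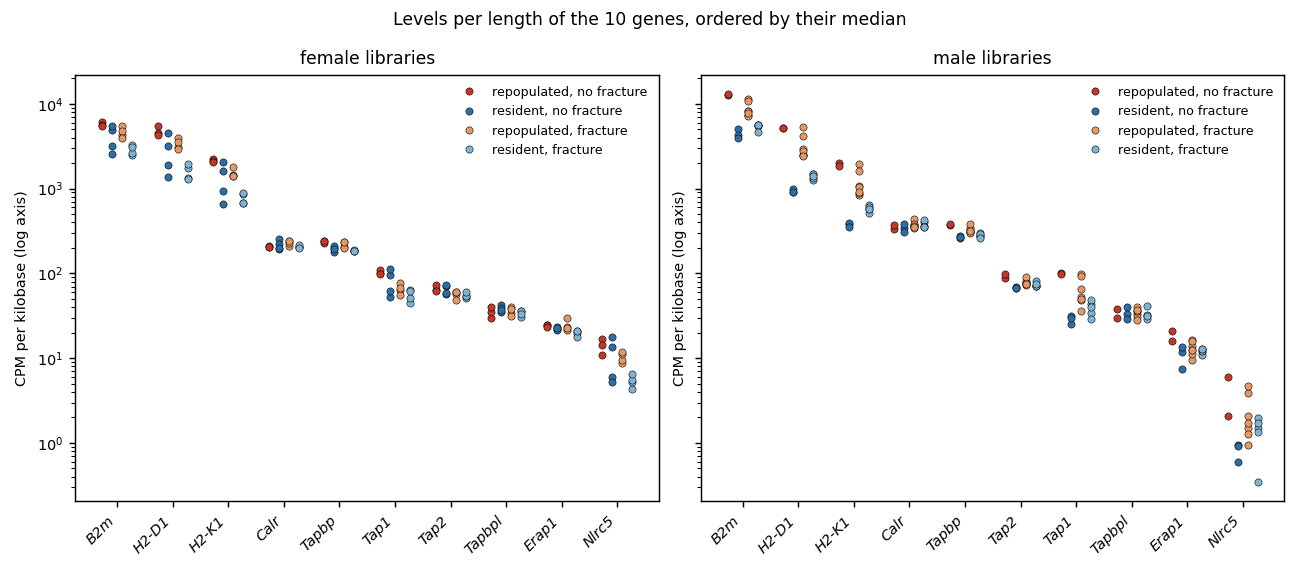
Levels of the 10 genes in CPM per kilobase of their longest listed protein-coding transcript, on a log axis, with 1 point per library, coloured by group, in females (left) and males (right). B2m, H2-D1 and H2-K1 lead in both sexes and Nlrc5 is lowest, down to 0.35 CPM per kilobase in 1 male resident library.

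Male repopulated microglia without fracture had more RNA of the class I complex genes than resident ones, for both heavy chains and the light chain. H2-D1, a classical heavy chain, stood at 10837 and 10935 CPM in the 2 repopulated libraries without fracture, against 1934, 2064 and 1903 CPM in the 3 resident ones. H2-K1, the other classical heavy chain, stood at 3204 and 2973 CPM in repopulated against 626, 644 and 578 CPM in resident libraries. B2m stood at 10861 and 11246 CPM in repopulated against 4369.5, 3652 and 3415 CPM in resident libraries. In these 3 genes every repopulated library was above every resident one, as in 17% of all genes tested. The log2 fold changes (± SE) were 2.47 ± 0.27 for H2-D1 or 5.53-fold, 2.33 ± 0.28 for H2-K1 or 5.02-fold, and 1.54 ± 0.16 for B2m or 2.9-fold. By the quasi-likelihood test of edgeR, with Benjamini-Hochberg adjustment over all genes of the table, adjusted p-values were 4.96e-05, 0.000139 and 8.07e-06 in that order, and B2m had the 10th smallest p of the 11999 genes, of which 7.42% were called.

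With fracture the 3 genes were also higher in male repopulated microglia. H2-D1 ran from 5053 to 11163 CPM with a median of 5791 in the 7 repopulated libraries, against 3111, 2625, 2823, 3114 and 2981 CPM in the 5 resident ones. H2-K1 ran from 1373 to 3146 CPM with a median of 1675 in repopulated libraries, against 1043, 839.6, 932, 989 and 924 CPM in resident ones. B2m ran from 6200.4 to 9834 CPM with a median of 7113 in repopulated libraries, against 4781, 4687, 4883, 4829 and 3959 CPM in resident ones. The repopulated group lay above the resident one without overlap in each of the 3 genes, as it did in 2% of all genes tested. The changes were 1.21 ± 0.18 for H2-D1 (adjusted p = 0.00103), 1.03 ± 0.19 for H2-K1 (adjusted p = 0.00428) and 0.7 ± 0.11 for B2m (adjusted p = 0.000576), where 4.91% of all genes were called. Replicates 6 and 7 held the upper end, with 11163 and 8860 CPM of H2-D1 against 5053 to 6162 CPM in the other 5 repopulated libraries. With both left out, H2-D1 was higher by 0.91 ± 0.06 (adjusted p = 1.03e-07), H2-K1 by 0.7 ± 0.07 (1.63e-05) and B2m by 0.53 ± 0.07 (0.00019). This pair was picked for its high levels of the same genes, so the smaller spread was fixed in advance and these p-values are no support.

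**Figure D2:**
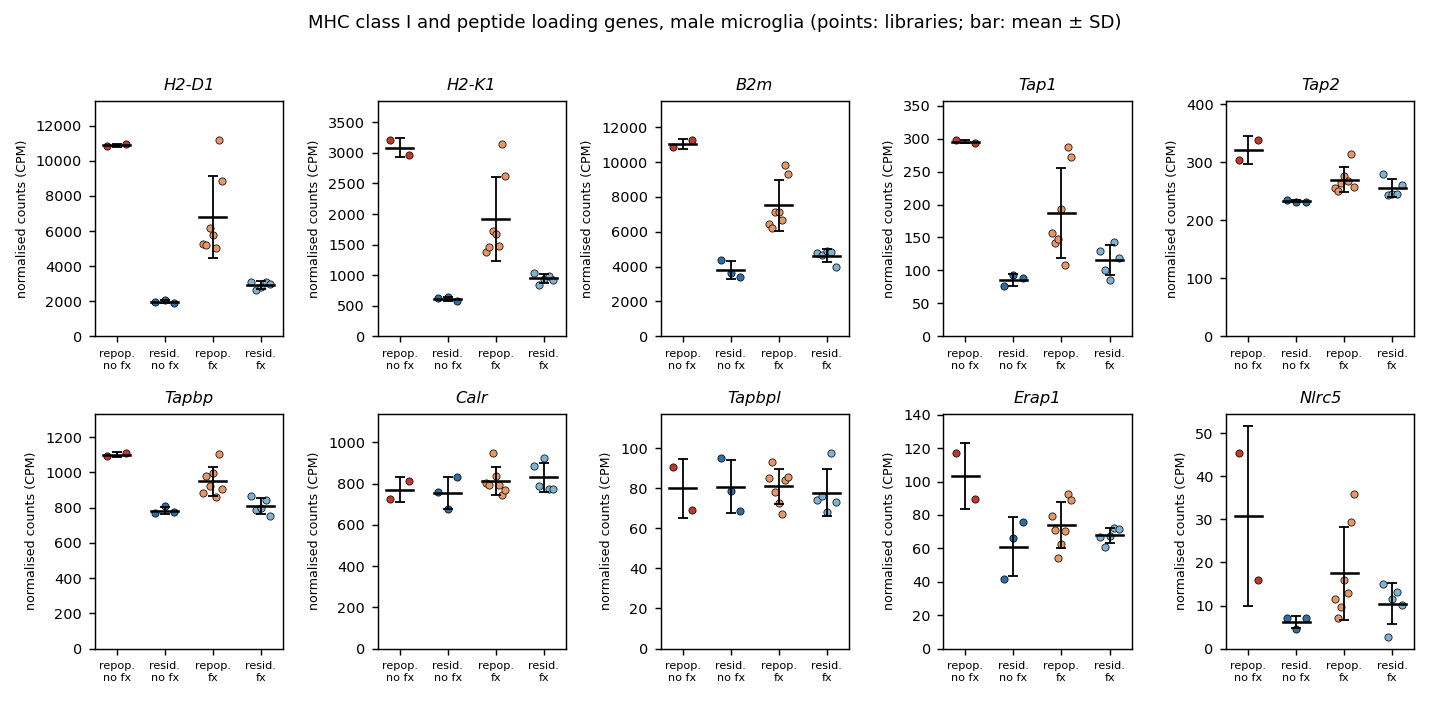
Normalised counts (CPM, linear axes from 0) of the 10 genes in male microglia, with 1 point per library (fx, fracture), bars at the mean and whiskers of 1 SD, repopulated left of resident within each fracture state. H2-D1, H2-K1 and B2m separate repopulated from resident libraries in both fracture states, while Calr and Tapbpl overlap in both.

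In females without fracture the resident libraries were widely spread in all 3 genes of the complex, and none of the 3 passed there. H2-D1 stood at 11372, 9613 and 9103 CPM in repopulated libraries without fracture, against 6604, 2851, 9626 and 3974 CPM in resident ones. H2-K1 stood at 3598, 3403 and 3360.1 CPM against 2580.4, 1057, 3313 and 1529 CPM, and B2m at 5292, 4853 and 4697 CPM against 4277, 2199, 4676 and 2753 CPM, repopulated against resident. The high resident values are replicates 1 and 3 in all 3 genes, and for H2-D1 replicate 3 lay above 2 of the 3 repopulated libraries. The log2 changes were 0.8 ± 0.33, 0.7 ± 0.3 and 0.51 ± 0.22 for H2-D1, H2-K1 and B2m, where 2.53% of all genes were called (adjusted p = 0.265, 0.28 and 0.295). The repopulated groups were tight by comparison, at 10029.5 ± 1190.2 CPM of H2-D1 against 5764 ± 3017 CPM in resident libraries (mean ± SD, n = 3 and 4). Without replicate 3 the change of H2-D1 was 1.16 ± 0.27 (adjusted p = 0.0358), and without both replicates it was 1.55 ± 0.22 (adjusted p = 0.00269). Without both, that of H2-K1 was 1.41 ± 0.18 (adjusted p = 0.00101) and that of B2m 0.99 ± 0.16 (adjusted p = 0.00363). These 2 libraries were picked for their high levels of the same genes, so larger changes without them were fixed in advance and are no support.

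With fracture every female repopulated library lay above every resident one in the 3 genes, as in 6.26% of all genes tested. H2-D1 stood at 6508, 8389, 7423 and 6228 CPM in repopulated libraries against 2789.6, 2725, 3719 and 4049 CPM in resident ones. H2-K1 stood at 2317, 2949, 2298 and 2259 CPM in repopulated libraries against 1103, 1109, 1414 and 1454 CPM in resident ones. B2m stood at 3669, 4754, 4093 and 3358 CPM in repopulated libraries against 2121, 2256, 2783 and 2695 CPM in resident ones. The changes of 1.1 ± 0.31, 0.95 ± 0.28 and 0.69 ± 0.21 did not pass in the fit of all 4 groups (adjusted p = 0.0917, 0.107 and 0.112), whose shared spread includes the resident libraries without fracture. They passed when those 8 fracture libraries were fitted alone (adjusted p = 0.00986, 0.00379 and 0.019) and by DESeq2 (0.0133, 0.00312 and 0.0106). Without resident replicate 2 without fracture all 3 passed (0.0301, 0.0231 and 0.0363), and without replicate 3 of that group H2-D1 and H2-K1 did (0.0308 and 0.0453). Replicates 2 and 3 are the lowest and highest, in all 3 genes, of a group outside this comparison. The smaller spread without either was fixed in advance, so the p-values without either are no support. In the other fits that left out 1 library none of the 3 genes passed (adjusted p up to 0.229, 0.252 and 0.271). Averaged over both fracture states, the 3 genes rose in female repopulated microglia by 0.95 ± 0.22, 0.83 ± 0.2 and 0.6 ± 0.15 (adjusted p = 0.0209, 0.0249 and 0.0274). With repopulated replicate 1 without fracture left out, none of the 3 passed in that average (adjusted p = 0.0513, 0.0569 and 0.069). H2-K1 and B2m also missed without resident replicate 1 (0.0543 and 0.0578) or 2 (0.0525 and 0.0562) with fracture, and B2m without resident replicate 4 without fracture (0.0515), repopulated replicate 2 without fracture (0.0514) or repopulated replicate 2 with fracture (0.0532).

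**Figure D3:**
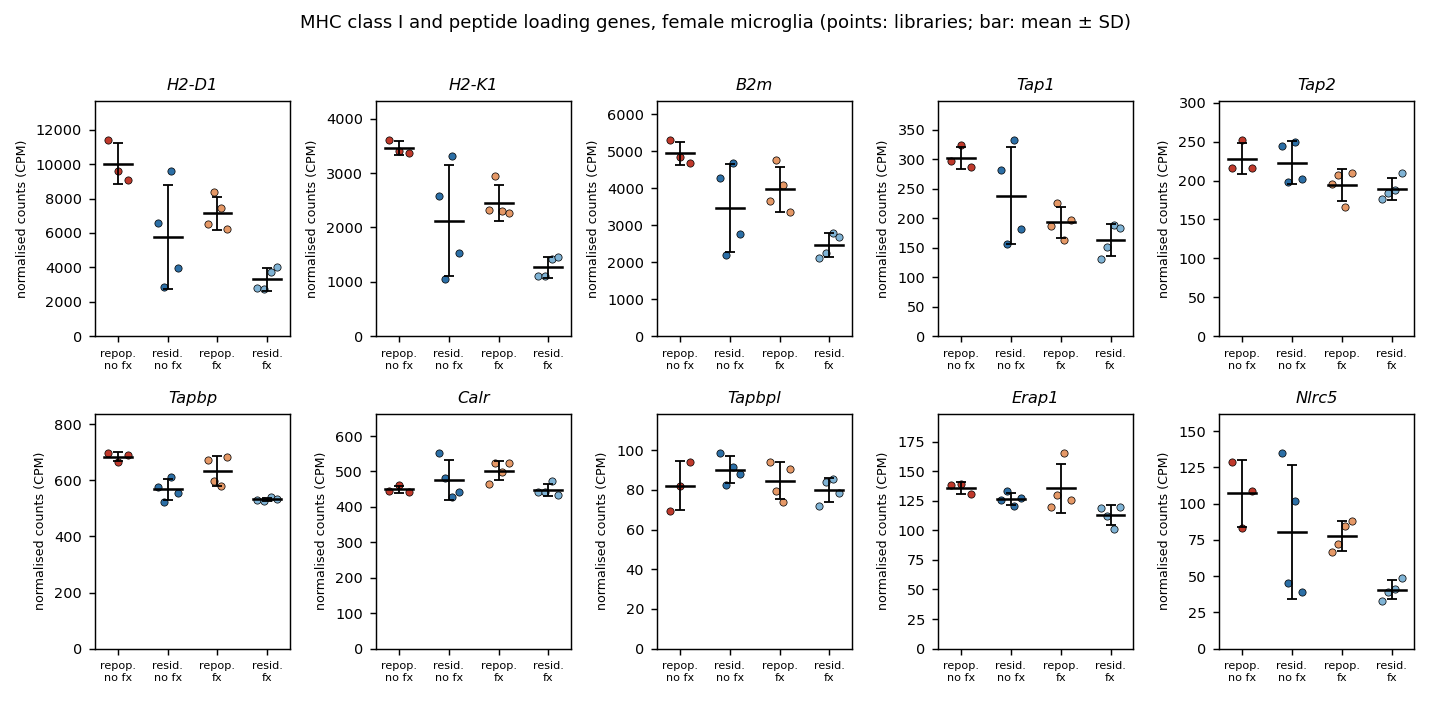
Normalised counts (CPM, linear axes from 0) of the 10 genes in female microglia, with 1 point per library (fx, fracture), bars at the mean and whiskers of 1 SD, repopulated left of resident within each fracture state. In H2-D1, H2-K1, B2m and Nlrc5 2 of the 4 resident libraries without fracture sit above the other 2, and with fracture the groups separate in all 4 genes.

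The levels took the same order of groups in H2-D1, H2-K1 and B2m within each sex. From the highest mean down, the order in males was repopulated without fracture, repopulated with fracture, resident with fracture and resident without fracture. In males the first neighbours overlapped in H2-D1 and H2-K1 and not in B2m, and the last ones overlapped in B2m and not in H2-D1 and H2-K1. In females the order was repopulated without fracture, repopulated with fracture, resident without fracture and resident with fracture, and the first neighbours overlapped in B2m and not in H2-D1 and H2-K1. The last neighbours overlapped in all 3 genes in females. The middle pair, the lower repopulated and the higher resident group, overlapped in all 3 genes in females and in none of them in males. Together H2-D1, H2-K1 and B2m took 2.34% to 2.43% of all counts in male repopulated libraries without fracture, against 0.608% to 0.68% in resident ones. With fracture the share was 1.28% to 2.34% in male repopulated and 0.827% to 0.924% in resident libraries. In females the share was 1.67% to 1.95% in repopulated and 0.63% to 1.76% in resident libraries without fracture, and 1.16% to 1.55% against 0.621% to 0.842% with fracture. In bulk RNA, more RNA of a gene per cell and more cells that carry it cannot be told apart.

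The heavy chains were also set against B2m within each library. The ratio of H2-D1 plus H2-K1 to B2m, each per kilobase, was 0.551 ± 0.0191 in male repopulated against 0.3 ± 0.0374 in resident libraries without fracture (mean ± SD, n = 2 and 3), and 0.494 ± 0.0707 against 0.37 ± 0.0422 with fracture (n = 7 and 5). In females it was 1.2 ± 0.0379 against 0.961 ± 0.186 without fracture (n = 3 and 4) and 1.07 ± 0.0359 against 0.822 ± 0.0601 with fracture (n = 4 each), repopulated before resident. Without fracture the male groups did not overlap (0.538 to 0.565 against 0.257 to 0.325), and female resident libraries reached 1.22, within the repopulated range. With fracture the male groups overlapped (0.428 to 0.634 against 0.324 to 0.432), and replicates 6 and 7 held the upper end, with 0.428 to 0.483 in the other 5 repopulated libraries. The female groups did not overlap with fracture (1.04 to 1.12 against 0.755 to 0.901). These ratios are descriptions and were not tested.

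The start sites of genes that rose in males and of one that passed no test are shown together with the elements through which class I genes are known to be regulated. The windows run from 250 bases before to 50 after the transcription start in RefSeq (GRCm38.p6), and 7 of the 10 genes have at least 1, with 2 for H2-K1, of which the more upstream is printed. Capitals mark matches, on either strand, to 4 motifs. They are the core of the palindromic NF-kappaB site of class I enhancers (GGGANTCCC), an interferon response element core (AANNGAAA), the TGACG core of the X2 box, and the CCAAT core of the Y box. The X2 and Y boxes belong to the module on which NLRC5 acts. H2-D1 is from chr17:35262844-35263143, plus strand, H2-K1 from chr17:34000298-34000597, minus strand, B2m from chr2:122147437-122147736, plus strand, Tap1 from chr17:34187306-34187605, plus strand, and Calr from chr8:84846882-84847181, minus strand.
H2-D1: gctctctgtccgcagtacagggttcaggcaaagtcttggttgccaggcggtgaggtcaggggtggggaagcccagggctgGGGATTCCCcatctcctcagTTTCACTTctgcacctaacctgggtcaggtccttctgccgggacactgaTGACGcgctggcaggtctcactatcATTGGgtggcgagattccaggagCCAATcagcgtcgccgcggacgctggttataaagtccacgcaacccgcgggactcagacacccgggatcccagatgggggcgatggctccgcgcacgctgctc
H2-K1: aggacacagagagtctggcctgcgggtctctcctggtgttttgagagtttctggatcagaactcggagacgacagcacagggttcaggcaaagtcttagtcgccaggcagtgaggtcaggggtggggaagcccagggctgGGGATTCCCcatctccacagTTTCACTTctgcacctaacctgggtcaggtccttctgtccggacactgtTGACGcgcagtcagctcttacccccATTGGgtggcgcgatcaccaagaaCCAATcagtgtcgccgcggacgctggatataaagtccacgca
B2m: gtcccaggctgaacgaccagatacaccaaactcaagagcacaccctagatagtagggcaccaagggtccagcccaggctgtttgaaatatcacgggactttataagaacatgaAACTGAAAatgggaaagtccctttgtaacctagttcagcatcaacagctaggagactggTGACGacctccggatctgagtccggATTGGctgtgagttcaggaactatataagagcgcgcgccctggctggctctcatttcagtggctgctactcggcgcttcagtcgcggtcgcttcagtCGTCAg
Tap1: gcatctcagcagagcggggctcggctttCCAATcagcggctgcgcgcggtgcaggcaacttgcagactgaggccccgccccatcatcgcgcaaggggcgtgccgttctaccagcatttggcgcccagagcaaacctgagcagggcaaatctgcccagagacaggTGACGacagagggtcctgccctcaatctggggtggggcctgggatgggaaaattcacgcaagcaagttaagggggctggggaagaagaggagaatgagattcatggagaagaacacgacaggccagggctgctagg
Calr: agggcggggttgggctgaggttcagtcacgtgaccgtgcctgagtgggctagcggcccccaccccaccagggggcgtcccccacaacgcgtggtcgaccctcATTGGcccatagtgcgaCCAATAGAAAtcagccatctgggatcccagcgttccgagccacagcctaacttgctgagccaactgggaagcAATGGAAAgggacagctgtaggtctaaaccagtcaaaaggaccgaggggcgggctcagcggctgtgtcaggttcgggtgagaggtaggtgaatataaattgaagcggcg

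H2-D1 and H2-K1 hold the same order of elements, with the GGGANTCCC match 170 bases before the start in H2-D1 and 110 bases before it in H2-K1, then AANNGAAA, TGACG and CCAAT. Of 32851 RefSeq windows 252 hold GGGANTCCC, or 0.767%. In H2-D1, H2-K1 and B2m the first CCAAT match after TGACG reads ATTGG on the printed strand and begins 25 bases after TGACG begins. That pair at that distance on the printed strand, looked for after it was seen in these genes, is found in 19 of the 32851 windows, or 0.0578%, theirs included. B2m also holds AANNGAAA, and Tap1 holds CCAAT before TGACG, without that pair. Calr, which passed no test, holds CCAAT and AANNGAAA and no TGACG, and a CCAAT and an AANNGAAA match there overlap. The shorter motifs are common, in 23.9% of windows for AANNGAAA, 20.8% for TGACG and 37.4% for CCAAT, so each match is a description of letters and not of a bound site. Of the other windows, Tapbp holds CCAAT and Erap1 AANNGAAA.

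Of the peptide-loading genes, Tap1, Tap2 and Tapbp rose with the heavy and light chain genes in males without fracture, and Calr and Tapbpl passed in no comparison by edgeR. Tap1, which codes for a subunit of the transporter, stood at 297 and 293 CPM in male repopulated libraries without fracture against 75.7, 93.2 and 87.9 CPM in resident ones, a change of 1.79 ± 0.32 (adjusted p = 0.00208). Tap2, the other subunit, stood at 304 and 338 CPM in the same repopulated libraries against 235, 232 and 232 CPM in resident ones, a change of 0.46 ± 0.1 (adjusted p = 0.00494, and 0.108 without repopulated replicate 2). The ratio of Tap1 to Tap2, each per kilobase, was 1.07 ± 0.0919 in repopulated against 0.428 ± 0.0478 in resident libraries (mean ± SD, n = 2 and 3), without a test. It counts all listed transcripts of each gene, and over the male libraries 69.3% of Tap2 counts sat on a retained-intron transcript. The ratio is therefore not that of the protein-coding transcripts alone. With fracture, Tap1 ran from 108 to 288 CPM with a median of 157 in male repopulated libraries and overlapped the resident ones at 129, 101.1, 84.7, 143 and 118 CPM. The change was 0.7 ± 0.21 (adjusted p = 0.0727, with 0.0393 by DESeq2 and 0.0138 without repopulated replicate 5). Replicate 5 is the lowest of its group in Tap1, so a larger change without it was fixed in advance and is no support. In the other fits that left out 1 library Tap1 did not pass there (adjusted p up to 0.176). Without repopulated replicates 6 and 7 that change of Tap1 was 0.38 ± 0.14 (adjusted p = 0.183). Tap2 with fracture had a change of 0.08 ± 0.06 (adjusted p = 0.64).

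In females Tap1 stood at 298, 324 and 287 CPM in repopulated libraries without fracture against 282, 157, 332 and 183 CPM in resident ones, where replicates 1 and 3 were again the high ones. Its change was 0.34 ± 0.22 without fracture and 0.24 ± 0.2 with fracture, and that of Tap2 was 0.03 ± 0.11 and 0.04 ± 0.1. Neither gene passed in females (adjusted p = 0.517 and 0.727 for Tap1, 0.938 and 0.953 for Tap2). Without resident replicates 1 and 3 the change of Tap1 without fracture was 0.83 ± 0.15 (adjusted p = 0.00609). These libraries were picked for high class I levels and were high in Tap1 too, so that p-value is no support.

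Tapbp, the tapasin gene, showed small changes. It stood at 699, 667 and 689 CPM in female repopulated libraries without fracture against 578, 524, 613 and 557 CPM in resident ones, and rose by 0.27 ± 0.07 (adjusted p = 0.048). With fracture it stood at 672, 599, 579 and 685 CPM in repopulated libraries against 530.0, 527, 541 and 534 CPM in resident ones, a change of 0.25 ± 0.06 (adjusted p = 0.0503). Neither pair of groups overlapped. In males it stood at 1091 and 1112 CPM in repopulated libraries without fracture against 768, 808 and 775 CPM in resident ones, and rose by 0.49 ± 0.09 (adjusted p = 0.0018). With fracture it rose by 0.23 ± 0.06 in males (adjusted p = 0.0292), with 861 to 1102 CPM in repopulated and 753 to 866 CPM in resident libraries, which overlapped. That call was lost without resident replicate 2, 3 or 5 (adjusted p = 0.0814, 0.0703 and 0.0754) or repopulated replicate 4 or 6 (0.0587 and 0.0538). It was also lost without repopulated replicates 6 and 7 together (0.0634), with library totals as the only scaling (0.0819), with V numbers below 80 (0.327) or above 98 (0.43), and with a replicate block (0.0944). The female call without fracture was lost in 12 of the 15 fits that left out 1 library (highest adjusted p = 0.171, without repopulated replicate 1), all but those without resident replicate 3 without fracture or repopulated replicate 3 or 4 with fracture, while the average over fracture states passed in all 15 (0.26 ± 0.05, adjusted p = 0.00229).

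Calr, which codes for the chaperone calreticulin, stood at 446, 462 and 442 CPM in female repopulated and 553, 481, 427 and 441 CPM in resident libraries without fracture. Its log2 change lay between -0.08 and 0.16 in the 4 comparisons of repopulated with resident microglia, each with an SE of 0.07 to 0.11. Tapbpl, a tapasin-related peptide editor, stood at 69.5, 82.1 and 94.2 CPM in female repopulated and 98.7, 82.2, 91.6 and 88 CPM in resident libraries without fracture. Its change lay between -0.14 and 0.08, with an SE of 0.11 to 0.18. Both genes overlapped between repopulated and resident libraries in each sex and fracture state. In males, Calr ran from 746 to 950.1 CPM in repopulated and 774 to 926 CPM in resident libraries with fracture, and Tapbpl from 67.1 to 93.4 and 68 to 97.8 CPM.

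Nlrc5, the transactivator of class I genes, was called by edgeR in males without fracture, and not in males with fracture or in females in either state. In males it stood at 45.5 and 15.9 CPM in repopulated libraries without fracture against 7.09, 4.53 and 7.03 CPM in resident ones, a rise of 2.28 ± 0.65 (adjusted p = 0.0348). The value moved most with repopulated replicate 1, since leaving it out gave 1.33 ± 0.75 (adjusted p = 0.389), and the call was also lost without resident replicate 1, 2 or 3 (adjusted p = 0.0864, 0.115 and 0.0884). In females it stood at 129, 83.2 and 108.9 CPM in repopulated libraries without fracture against 135, 45.1, 101.5 and 39.3 CPM in resident ones, with replicates 1 and 3 high. These groups overlapped, with a change of 0.42 ± 0.35 (adjusted p = 0.657), which was 1.34 ± 0.2 without those 2 libraries (adjusted p = 0.00146). Since these 2 were picked for high class I levels and were high in Nlrc5 too, that p-value is no support. With fracture the female groups separated, at 66.6, 72, 84.4 and 88.3 CPM in repopulated against 32.9, 39.2, 41.4 and 48.7 CPM in resident libraries, a change of 0.94 ± 0.33 that did not pass (adjusted p = 0.183, with 0.0327 by DESeq2). In males with fracture Nlrc5 ran from 7.17 to 35.8 CPM with a median of 12.9 in repopulated libraries and overlapped the resident ones at 14.9, 2.65, 11.4, 13.1 and 10.2 CPM. That change was 0.75 ± 0.42 (adjusted p = 0.433), and 0.13 ± 0.37 without repopulated replicates 6 and 7.

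Erap1, which codes for the aminopeptidase that trims peptides in the endoplasmic reticulum, rose in male repopulated microglia without fracture by 0.76 ± 0.22 (adjusted p = 0.0354). It stood at 117 and 89.5 CPM in these libraries against 41.6, 66 and 75.6 CPM in resident ones. The call was lost without resident replicate 1 (0.54 ± 0.21, adjusted p = 0.156) or repopulated replicate 1 (0.55 ± 0.27, adjusted p = 0.3) or 2 (0.95 ± 0.27, adjusted p = 0.0547). It was also lost with library totals as the only scaling (0.0903), with only the groups compared (0.106), with V numbers below 80 (0.0602) and with a replicate block (0.0795). With fracture the male groups overlapped, at 54.1 to 92.3 CPM in repopulated and 61.1 to 72.3 CPM in resident libraries, with a change of 0.13 ± 0.14 (adjusted p = 0.774). In females it stood at 120.0, 130.2, 166 and 126 CPM in repopulated libraries with fracture against 119, 113, 100.9 and 119.8 CPM in resident ones, which did not overlap, a change of 0.26 ± 0.09 (adjusted p = 0.181). Without fracture the female groups overlapped, with a change of 0.1 ± 0.1.

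Counted over the 10 genes, 8 rose and none fell in male repopulated microglia without fracture, where 7.42% of all genes were called and 4.7% were called higher. With fracture 4 rose, against 4.91% of all genes called and 3.03% called higher, and over the average of both states 8 rose, against 12.8% and 7.14%. In females 1 rose without fracture, Tapbp, where 2.53% of all genes were called and 1.56% called higher. With fracture 0 of the 10 were called by edgeR, against 2.35% of all genes called and 1.27% called higher, with 7 at an unadjusted p under 0.05 and 5 called by DESeq2. Over all 13377 genes 1834 were at that unadjusted p and DESeq2 called 694. Over the average 4 rose in females, against 8.52% and 4.43%. Repopulated libraries lay above all resident ones without overlap in 8 of the 10 genes in males without fracture, where 17% of all genes did so, and in 3 with fracture, against 2%. The counts in females were 3 without fracture, against 6.87%, and 6 with fracture, against 6.26%. The median log2 change of the 10 genes was 1.15 without and 0.46 with fracture in males, beside -0.03 and 0 over all genes. In females it was 0.31 without and 0.26 with fracture, beside -0.02 and 0. With resident replicates 1 and 3 left out, 6 of the 10 were called in females without fracture, and 673 of all genes against 338 with them. These 2 libraries were picked for their levels of the same genes.

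**Figure D4:**
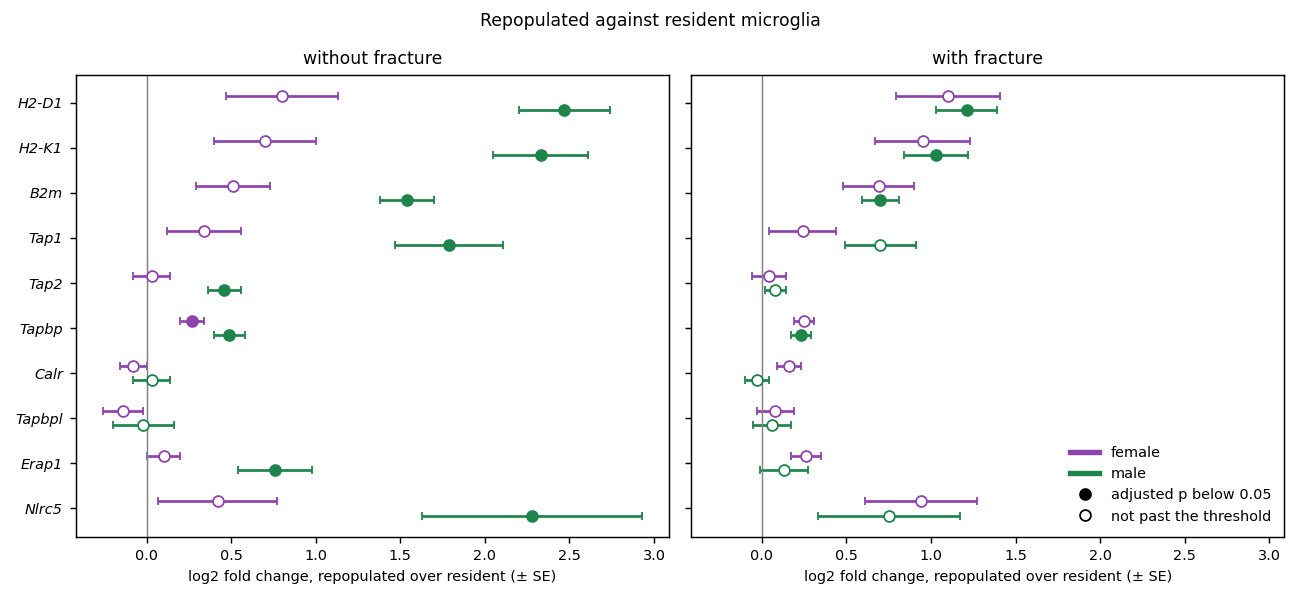
Log2 fold changes of the 10 genes, repopulated over resident, with bars of 1 SE, without fracture (left) and with fracture (right), in females (purple) and males (green). Filled points passed an adjusted p of 0.05 by edgeR's quasi-likelihood test, 8 in males and 1 in females without fracture and 4 and 0 with fracture.

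Fracture itself moved none of the 10 genes past the threshold in either state or sex. In female resident microglia 0% of all genes were called by edgeR, and the 10 genes had a median of -0.37, with 6 at an unadjusted p under 0.05. Over all 13377 genes 659 were at that unadjusted p. H2-D1 averaged 3321 ± 665 CPM with fracture and 5764 ± 3017 CPM without it in these resident libraries (mean ± SD, n = 4 each), a change of -0.8 ± 0.31. Without resident replicates 1 and 3, which were picked for their high levels of these genes, that change was -0.04 ± 0.19. In female repopulated microglia, where 0% of all genes were called, the median of the 10 was -0.27 with 2 genes at an unadjusted p under 0.05, beside 1410 of all 13377 genes. Tap1 stood at 187, 225, 162 and 198 CPM with fracture against 298, 324 and 287 CPM without it there, and the groups did not overlap (-0.65 ± 0.22, adjusted p = 0.374). Without overlap, 4 of the 10 lay lower with fracture in repopulated microglia, where 6.2% of all genes did so, and 1, Calr, lay higher, against 6.81%. DESeq2 called 0 of the 10 in both female comparisons, and 4 and 90 of all genes in resident and repopulated microglia.

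In males H2-D1 stood higher with fracture in resident and lower in repopulated microglia, by changes that did not pass. H2-D1 averaged 2931 ± 209 CPM with and 1967 ± 85.6 CPM without fracture in resident libraries (mean ± SD, n = 5 and 3), a change of 0.58 ± 0.22 (adjusted p = 1). It averaged 6787 ± 2332 CPM with and 10886 ± 69.4 CPM without fracture in repopulated libraries (n = 7 and 2), a change of -0.68 ± 0.23 (adjusted p = 0.423). Of all genes 0.00833% were called in each, with 3 and 7 of the 10 at an unadjusted p under 0.05 in resident and repopulated microglia, and DESeq2 called 0 and 1 of the 10. Over all 11999 genes 511 and 995 were at that unadjusted p, and DESeq2 called 12 and 58. In resident libraries 3 of the 10 lay higher with fracture without overlap, against 2.36% of all genes, and in repopulated ones B2m and Tap1 lay lower, against 3.52%. The interaction, the repopulation effect with fracture minus that without, was -1.26 ± 0.32 for H2-D1, -1.3 ± 0.34 for H2-K1 and -0.83 ± 0.19 for B2m. It called 0 of the 10 by edgeR (adjusted p = 0.367, 0.367 and 0.338, with 0.00833% of all genes called and 7 of the 10 at an unadjusted p under 0.05) and 4 by DESeq2, whose adjusted p-values for the 3 genes were 0.0267, 0.0279 and 0.00303. For the interaction 886 of all 11999 genes were at that unadjusted p by edgeR, and DESeq2 called 49 of all genes. Without repopulated replicate 6, edgeR called H2-D1, H2-K1 and B2m both for fracture in repopulated microglia (-0.85 ± 0.14 for H2-D1, adjusted p = 0.0167) and for the interaction (-1.42 ± 0.19, adjusted p = 0.00743). With repopulated replicates 6 and 7 left out, edgeR called 4 of the 10 in each, and 157 and 117 of all genes, against 1 and 1 of all genes with them. This pair was chosen for its levels of the same genes. The female interaction was 0.3 ± 0.45 for H2-D1, with 0% of all genes called by edgeR, 1 of the 10 at an unadjusted p under 0.05 and 0 called by DESeq2. Over all 13377 genes 494 were at that unadjusted p and DESeq2 called 1.

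Male titles carry a V number, whose meaning the labels do not give, and it splits the fracture groups. Among libraries with a V number below 80, H2-D1 was 5198 to 6162 CPM in 3 repopulated and 2625 to 3111 CPM in 3 resident libraries with fracture, a change of 0.96 ± 0.08 (adjusted p = 0.000164). Among those above 98 it was 5053 to 11163 CPM in 4 repopulated and 2981 to 3114 CPM in 2 resident libraries, a change of 1.34 ± 0.33 (adjusted p = 0.178). The change of B2m was 0.46 ± 0.09 (adjusted p = 0.0295) below 80 and 0.91 ± 0.17 (adjusted p = 0.058) above 98. Below 80 the interaction was -1.52 ± 0.12 for H2-D1 (adjusted p = 7.14e-05), with 4 of the 10 genes and 25 of all genes called. With a term for the side it was -1.33 ± 0.28 (adjusted p = 0.219). All male libraries without fracture are below 80.

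Across libraries H2-D1, H2-K1, B2m and Tap1 varied together and Calr and Tapbpl did not vary with them. Pearson's r of log2 CPM between H2-D1 and H2-K1 was 0.99 over the 15 female and 1 over the 17 male libraries, and between H2-D1 and B2m 0.99 and 0.98. After group means were removed these were 0.98 and 0.98 with H2-K1, and 0.97 and 0.83 with B2m. H2-D1 and Tap1 had 0.84 in females and 0.94 in males, and H2-D1 and Nlrc5 0.89 and 0.76, while H2-D1 and Calr had 0.15 and -0.03 and H2-D1 and Tapbpl 0.1 and 0.12. Libraries share their depth and scaling, and these correlations are descriptions without a test. The genes most like the mean of H2-D1, H2-K1 and B2m were H2-Q7 (r = 0.991), Ccl5 (0.987), H2-Q5 (0.987), H2-Q6 (0.98) and Lgals3bp (0.979) in females, of 9213 genes compared over 15 libraries. In males they were H2-Q7 (0.988), H2-Q6 (0.978), Lgals3bp (0.976), Itgax (0.975) and Cxcl16 (0.975), of 9027 genes over 17 libraries. H2-Q5, H2-Q6 and H2-Q7 are class I heavy chains of the Q region whose sequence is close to the classical ones, so some of their counts may be shared with them.

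Interferon response genes moved with the class I genes from library to library. The list of 14, among them Ifit1, Isg15 and Usp18, summed to 2715 to 2955 CPM in male repopulated against 316 to 399.6 CPM in resident libraries without fracture, and to 766 to 2823 against 465 to 764 CPM with fracture. In males 13 of the 14 rose without fracture and 12 with fracture, at medians of 3.31 and 1.67, where 4.7% and 3.03% of all genes were called higher. In females none was called, with medians of 0.34 and 0.51 (0 and 3 at an unadjusted p under 0.05 without and with fracture), where 1.56% and 1.27% of all genes were called higher. Of all 13377 genes 2041 and 1834 were at that unadjusted p. The summed level in females was 2586 to 3243 CPM in repopulated against 1329 to 3337 CPM in resident libraries without fracture, and resident replicates 1 and 3 held 3337 and 2564 CPM of it against 1329 and 1519.6 CPM in replicates 2 and 4. With fracture it was 1484 to 2117 CPM in female repopulated against 754 to 1545 CPM in resident libraries, which overlapped. Male repopulated replicates 6 and 7 with fracture held 2823 and 2789 CPM, against 765.9 to 1509 CPM in the other 5. Pearson's r between log2 CPM of H2-D1 and the mean of the 14 genes was 0.84 in females and 0.98 in males, and 0.74 and 0.86 with group means removed. For Tap1 it was 0.95 and 0.93, and for Calr 0.25 and -0.02. The part of interferon response genes in the class I result was not tested.

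**Figure D5:**
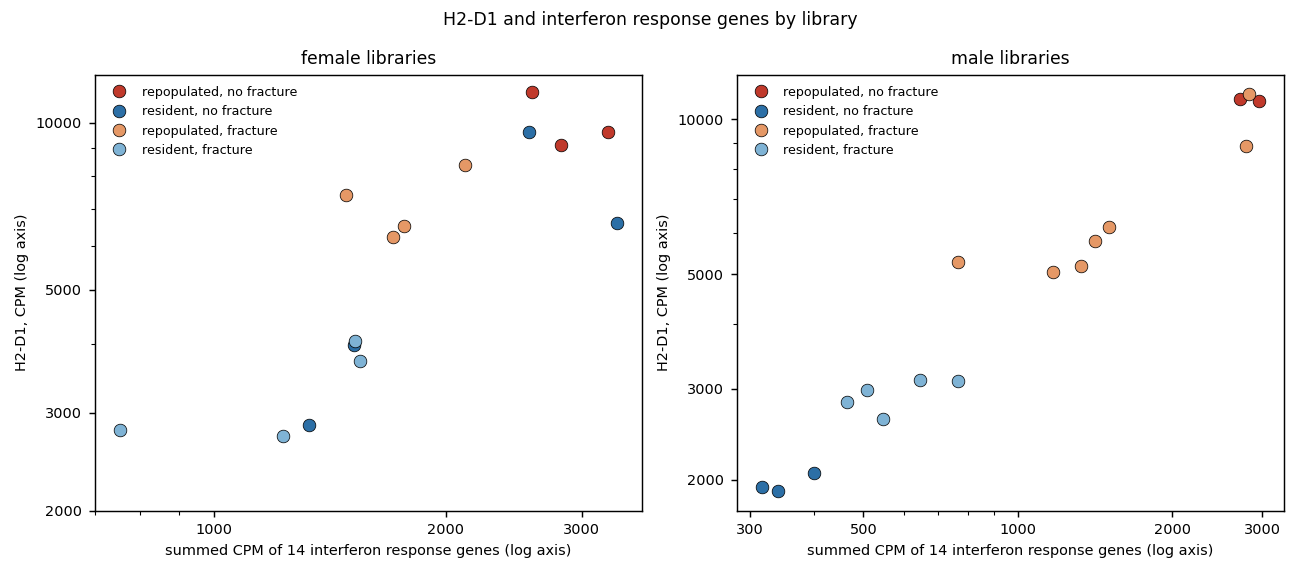
H2-D1 in CPM (vertical, log axis) against the summed CPM of 14 interferon response genes (horizontal, log axis), with 1 point per library, coloured by group, in females (left) and males (right). Libraries high in one were mostly high in the other, including 2 male repopulated libraries with fracture. In females the library with the highest interferon sum, resident replicate 1 without fracture, lies below every repopulated library without fracture in H2-D1.

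Some markers of other cells also differed between the states. Of the 6 listed monocyte and circulating macrophage genes, 4 rose in female repopulated microglia without and 3 with fracture, and 3 and 2 in males. Of all genes 1.56% and 1.27% in females and 4.7% and 3.03% in males were called higher in these comparisons. Their list (6 of 8 genes, without Ly6c2 and Ccr2) summed to 1564 to 2581 CPM in female repopulated against 641 to 1262 CPM in resident libraries without fracture, and 1824 to 2179 against 825 to 885 CPM with fracture. In males it summed to 1418 to 2523 against 494 to 686 CPM without and 1033 to 2253 against 669 to 1213 CPM with fracture. Pearson's r between H2-D1 and this list's mean was 0.92 over the female and 0.74 over the male libraries, and 0.78 and 0.32 with group means removed. The border-associated macrophage list (3 of 6 genes listed in females, 4 in males) summed to 4.96 to 39.4 against 1.32 to 5.43 CPM in females without fracture and 22.1 to 65.1 against 0.837 to 3.9 CPM with fracture, repopulated against resident. In males it summed to 5.04 to 73 against 4.47 to 10.9 CPM without and 9.31 to 80 against 2.9 to 10.3 CPM with fracture. The groups overlapped except in females with fracture, where 1 of the 3 genes rose, and none was called elsewhere.

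Markers of lymphoid and vessel cells were mostly lower in repopulated libraries. Of all genes 2.53% and 2.35% were called in either direction in females without and with fracture, and 7.42% and 4.91% in males. The B cell list (3 of 6 listed, with Cd79a and Ms4a1 not among them) summed to 343 to 376 against 489 to 624.9 CPM in females without and 389 to 461 against 546 to 599.9 CPM with fracture, repopulated against resident, and 3 and 2 of the 3 fell. In males it summed to 312 to 339.8 against 471 to 543 CPM without and 332 to 451 against 429 to 528 CPM with fracture, where the groups overlapped, and 1 and 2 of the 3 fell. The endothelial list (2 of 5 genes listed in females, 1 in males) summed to 3.74 to 8.12 against 16.8 to 23 CPM in females without and 1.59 to 6.58 against 20.5 to 25.5 CPM with fracture, and 1 of the 2 fell in each. In males it summed to 0.545 to 2.13 against 17.3 to 28.2 CPM without fracture, where its gene fell, and 0.957 to 19.6 against 18 to 21.5 CPM with fracture, where the groups overlapped and it was not called. Of 5 neutrophil markers Csf3r alone was listed, a receptor chain that microglia also carry, and S100a8, S100a9, Ly6g and Retnlg were not. Csf3r had a difference of 0.26 ± 0.07 in females without fracture (adjusted p = 0.0517) and rose by 0.37 ± 0.06 with fracture (adjusted p = 0.00974). In males it rose by 0.5 ± 0.12 without (adjusted p = 0.0116) and 0.36 ± 0.08 with fracture (adjusted p = 0.0101). The 10 microglial markers summed to 44069 to 45279 against 43058 to 52915 CPM in females without and 47386 to 49201 against 47867 to 48897 CPM with fracture, repopulated against resident, ranges that overlapped. In males they summed to 51726 to 53389.8 against 58212 to 61011 CPM without and 49829 to 59944 against 56371 to 64275 CPM with fracture, overlapping with fracture. Of these markers 1 rose and 2 fell in females without fracture and 1 rose and 1 fell with it, while in males none rose and 3 fell without and 1 with fracture. Pearson's r between H2-D1 and their mean was -0.88 over the female and -0.87 over the male libraries. The part of these markers in the class I result was not tested.

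Other genes of the pathway were counted from lists. Of the other class I heavy chains, 8 of 13 listed rose and 1 fell in male repopulated microglia without fracture, with a median of 1.28, and 4 rose and 1 fell with fracture, with a median of 0.56, where 4.7% and 3.03% of all genes were called higher. H2-Q7 rose most, to 450.0 ± 91.1 CPM in repopulated libraries without fracture, against 21.6 ± 1.67 CPM in resident ones (mean ± SD, n = 2 and 3, log2 change 4.38 ± 0.63). H2-M3, which presents formylated peptides, rose by 1.12 ± 0.17 without and 0.56 ± 0.11 with fracture. Cd1d1, which presents lipids and is no classical chain, fell by 1.14 ± 0.32 without fracture, and Fcgrt, the neonatal Fc receptor chain, fell by 0.39 ± 0.08 with fracture. In females 0 of 14 were called without fracture (3 at an unadjusted p under 0.05) and 1 rose with fracture, H2-Q10 by 1.55 ± 0.39. Of all genes 2.53% were called in females without fracture, with 2041 of 13377 at an unadjusted p under 0.05, and 1.27% were called higher with fracture.

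Genes that supply peptides moved in part. In male repopulated microglia without fracture 5 of 10 listed rose, among them the immunoproteasome subunits Psmb8 (0.73 ± 0.14) and Psmb9 (0.96 ± 0.21) and the proteasome activator subunits Psme1 (0.98 ± 0.2) and Psme2 (0.67 ± 0.19). With fracture 2 rose, Psmb8 by 0.32 ± 0.09 and Psme1 by 0.45 ± 0.13. In these male comparisons 4.7% of all genes without and 3.03% with fracture were called higher. In females 0 of 10 were called in either state (2 and 3 at an unadjusted p under 0.05), and Psme1 rose over the average of both by 0.44 ± 0.09. Of all genes 2.53% without and 2.35% with fracture were called in females, with 2041 and 1834 of 13377 at an unadjusted p under 0.05. Over the average 4.43% were called higher.

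The regulators split. In male repopulated microglia without fracture 7 of 26 listed rose and 2 fell, where 4.7% of all genes were called higher. Those higher included Stat2 (2.18 ± 0.42), which carries the type I interferon signal to the nucleus, Irf7 (4.31 ± 0.71) and Irf1 (0.87 ± 0.19), factors of the interferon response, and the type I interferon receptor chain Ifnar1 (0.45 ± 0.12). Rela, an NF-kappaB subunit, fell by 0.47 ± 0.11, and Ifngr1, a chain of the interferon gamma receptor, by 0.31 ± 0.09. With fracture 4 rose, with Ifnar1, Irf7 and Stat2 among them, where 3.03% of all genes were called higher. In females Ifnar1 was the 1 of 26 called without fracture, where 2.53% of all genes were called, higher by 0.41 ± 0.09, with 249 to 276 CPM in repopulated and 173 to 235 CPM in resident libraries. Of the general chaperones of the endoplasmic reticulum, 0 of 9 were called in either sex or state (3 in females and 2 in males at an unadjusted p under 0.05 without fracture, and 2 and 1 with it). At that unadjusted p stood 2041 of 13377 genes in females and 2272 of 11999 in males without fracture, and 1834 and 1885 with it. Of all genes 2.53% and 2.35% were called in either direction in females without and with fracture, and 7.42% and 4.91% in males. Of 11 cross-presentation genes 1 was called in each male comparison, the NADPH oxidase subunit Cybb, higher by 4.06 ± 0.57 without and 1.75 ± 0.36 with fracture. In females Cyba, its partner subunit, rose without fracture by 0.34 ± 0.07.

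The heavy chains are uncertain as single genes because their sequences are close. The coding sequences of the main transcripts of H2-D1 and H2-K1, 1086 and 1107 bases, were 91.5% identical over 1077 aligned bases, so reads may have been divided between them. Counts of 13 class I heavy chain genes in females and 12 in males, with these 2 among them, were therefore also summed. The sum was higher in male repopulated microglia by 2.4 ± 0.28 without fracture (adjusted p = 0.000103) and 1.15 ± 0.19 with fracture (adjusted p = 0.0021). In females the change of the sum was 0.73 ± 0.32 without (adjusted p = 0.297) and 1.03 ± 0.3 with fracture (adjusted p = 0.104), and 0.88 ± 0.22 over the average (adjusted p = 0.0264).

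Within genes, the estimated counts sat mostly on 1 or 2 transcripts. H2-D1-202, a protein-coding transcript, took 90.6% of H2-D1 in females and 81.3% in males, and H2-K1-201 took 72.1% and 55.1% of H2-K1. The H2-D1-202 share was 83.9 ± 2.17% in male repopulated against 76.7 ± 5.82% in resident libraries with fracture (mean ± SD, n = 7 and 5), and 91.6 ± 0.591% against 88.4 ± 0.639% in females (n = 4 each), without a test. Of Tap2, the retained-intron transcript Tap2-202 took 64.8% of counts in females and 69.3% in males, more than the protein-coding Tap2-201. Tapbp-206 took 71.7% and 83.6% of Tapbp and Tap1-206 66.2% and 83.6% of Tap1. B2m and Tapbpl were listed with 1 transcript each.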

How the data were processed

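RNA of sorted microglia from 32 libraries was sequenced. Each sex has a deposited table of estimated counts, which are whole numbers, 1 row per transcript. Every transcript in the authors' tables has at least 10 counts in at least 8 female or 9 male libraries. Per the labels' protocols, a company prepared the female libraries (ultra-low input), and the male ones used RNeasy Plus Micro, SMART-Seq v4 and Nextera DNA Flex. The submitters' processing notes name GRCm38, RSEM 1.3.1, STAR 2.7.6a, Trim Galore 0.6.7, cutadapt 3.4, DESeq2 1.34.0, R 4.1.3, FastQC 0.11.9 and MultiQC 1.11 without a role. Counting by strand is not given in the sources used here.

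Counts were summed by gene identifier. The 4 groups of a sex shared a model in edgeR 4.0.16 under R 4.3.3, with TMM scaling, filterByExpr (which removed no gene) and a robust quasi-likelihood F test. Benjamini-Hochberg adjustment ran over all genes of a table, and an adjusted p below 0.05 was called. An SE is the size of the log2 fold change over the square root of its F. CPM are relative to library total times TMM factor. Lengths came from GENCODE M21. Correlations used log2 CPM with a prior count of 2. The fits were tested on simulated data. Coding sequences were aligned with Biopython 1.88. Alternatives were DESeq2 1.42.0, other scalings and filters, the sample number as a block, and leaving out each library.

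The 10 genes and the lists were chosen with earlier results of these data known. The text names all 10 genes and, of each other list, called genes. Some genes of these lists are not reported here. Per table, the 5 most alike genes have the highest r with the mean z-score of H2-D1, H2-K1 and B2m among genes with a mean of at least 5 CPM, without predicted genes and pseudogenes.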

Additional observations from a re-analysis of the deposited data

Results flagged for a closer look

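In 4 of the 50 sets of 4 to 10 libraries examined for the 10 genes, 1 library lay far from the others of its group. H2-K1 stood at 2949 CPM in replicate 2 of the female repopulated group with fracture, against 2259 to 2317 CPM in the other 3. B2m stood at 3959 CPM in replicate 5 of the male resident group with fracture, against 4687 to 4883 CPM in the other 4. Tap2 stood at 315 CPM in replicate 6 of the male repopulated group with fracture, against 250.1 to 277 CPM in the other 6, and the same library was high in H2-D1, H2-K1 and B2m. Tapbpl stood at 97.8 CPM in replicate 4 of the male resident group with fracture, against 68 to 76.2 CPM in the other 4. Chance alone gives such a library in about 1 in 20 groups.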

How the results depend on the processing

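Of 3026 values of single genes recomputed under alternatives, 60 fell below the threshold and 70 passed it. The sign changed in 64, none of them called with either setting, and in 7 of these 1 of the 2 values or both were above the SE. Of the 7, 5 are female interactions without resident replicates 1 and 3, -0.46 for H2-K1, -0.45 for H2-D1, -0.4 for Nlrc5, -0.31 for B2m and -0.15 for Tap2 (0.25, 0.3, 0.52, 0.18 and 0.01 with them). The others are Nlrc5 in males, 0.13 for fracture in repopulated microglia without repopulated replicate 1 without fracture (-0.81 with it) and -0.02 for repopulated against resident with fracture at V numbers below 80 (0.75 over all). In male repopulated microglia without fracture, H2-D1, H2-K1, B2m, Tap1 and Tapbp were called under every alternative run. Leaving out 1 library at a time, the number of the 10 genes called ran from 6 to 8 there, from 3 to 5 with fracture and from 6 to 8 over the average in males. In females it ran from 0 to 2 without fracture (1 in the model as described), from 0 to 4 with fracture (0 as described) and from 1 to 5 over the average (4 as described). For the effect of fracture in male repopulated microglia and for the male interaction it ran from 0 to 3 (0 with all libraries), with 3 reached without repopulated replicate 6 with fracture. For the other 4 comparisons it was 0.

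In females without fracture the count was 0 with library totals only, 0 with only the groups compared and 6 without resident replicates 1 and 3. Over all genes these settings called 344, 0 and 673. With fracture the count was 1 with a minimum of 10 CPM, 5 by DESeq2 and 4 with only the groups compared, and the last setting gave 2 for fracture in repopulated microglia. Over all genes these were 377, 694, 629 and 86. In males the count was 2 with only the groups compared for fracture in resident microglia, 1 by DESeq2 for fracture in repopulated microglia and 4 by DESeq2 for the interaction. Over all genes these were 5, 58 and 49. For the last 2 comparisons the count was 4 each with V numbers below 80 (40 and 25 over all genes). That setting also leaves out repopulated replicates 6 and 7. The count was also 4 each without this pair alone (157 and 117 over all genes). With V numbers above 98 it was 0 for repopulated against resident with fracture (4 as described), from 6 libraries, with 43 called over all genes. The causes of the other moves were not tested. The 2 pairs of libraries and the split above 98 were chosen after seeing the data.

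Deviations from group means showed no clear pairing of equal sample numbers, with correlations of -0.312 to 0.211 and no comparison in which every pair was above 0.1. With few pairs per comparison, these correlations cannot exclude a pairing. With the replicate number as a block, the count was 0 in females without fracture and 2 over the average, and in males 1 for fracture in resident, 4 for fracture in repopulated microglia and 4 for the interaction. Over all genes the block called 143 in females without fracture (338 as described) and 293 in males with fracture (589 as described). It called 890 over the female average (1140 as described). For male fracture in resident and repopulated microglia and the male interaction it called 2, 56 and 57 (1 each as described). DESeq2 called 676 and 694 genes in females without and with fracture (338 and 315 as described).

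Few libraries per group (2 to 7), with the shallowest male library at 5722993 counts, limit precision for low genes such as Nlrc5.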
